A study of Homo sapiens with 6 samples.

Results

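LIN28A, LIN28B and 8 genes of the microRNA processing machinery (DROSHA, DGCR8, XPO5, DICER1, TARBP2, AGO1, AGO2 and AGO3) were followed in SK-N-BE(2) cells, a human neuroblastoma line, with and without knockdown of Prp19. They were chosen by name, as the RNA-binding LIN28 pair and the core steps from primary transcript to Argonaute, and make up 10 of the 58302 genes listed in each expression table. The question was what each gene's level was in this line and whether it differed between siPrp19 and control cells, overall and within same-numbered pairs of samples. The 2 groups were NC, transfected with a negative control small interfering RNA (siRNA), and siPrp19, transfected with an siRNA against PRPF19, the gene encoding the splicing factor Prp19. Each group had 3 samples, numbered 1 to 3, all from this single line and without any other agent or allele named. The labels give 72 h of transfection and the study's methods a shorter time, so the harvest time is uncertain. The study calls the replicates biological. The p-values compare the groups against the spread between these samples. In tests that ignore the sample numbers, that spread includes the differences between same-numbered pairs.

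MicroRNAs are cut from long primary transcripts in the nucleus by the Microprocessor, made of the nuclease DROSHA and its RNA-binding partner DGCR8. The hairpin that results is carried to the cytoplasm by XPO5, trimmed by DICER1 with the help of TARBP2, and loaded into an Argonaute protein that the short RNA guides to messenger RNAs. LIN28A and LIN28B bind the loop of let-7 hairpins and block this path for one family, and terminal uridylyltransferases such as TUT4 and TUT7 add uridines to the bound hairpin, which the nuclease DIS3L2 then degrades. LIN28B is a known driver of neuroblastoma, where loss of let-7 is linked to high MYCN.

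The let-7 family is shown first because its sequences define what LIN28 acts on and which messages it guards. RefSeq annotation on GRCh38 held 12 let-7 and miR-98 loci, which give 9 mature 5p sequences with 1 shared seed. The seed, bases 2 to 8 that pair with a target, is in capitals in 4 of the 9 mature sequences below.
hsa-let-7a-5p: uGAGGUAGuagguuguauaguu
hsa-let-7b-5p: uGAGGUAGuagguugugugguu
hsa-let-7i-5p: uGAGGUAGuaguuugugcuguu
hsa-miR-98-5p: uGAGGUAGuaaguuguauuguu

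GGAG is a motif that LIN28 proteins are known to bind in the terminal loop region of let-7 hairpins. A search on the transcribed strand found these 4 letters after the 5p arm in 9 of the 12 hairpins and in no part of the hairpins of let-7a-3, let-7b and miR-98. The same letters occur in 43.4% of all 1562 human hairpins in the table, so a match describes the sequence and is not a site. Hairpins with the motif (capitals) and without it are set side by side below, at chr9:94175957-94176036 (plus strand) for let-7a-1, chr3:52268278-52268361 (minus) for let-7g, chr22:46112749-46112822 (plus) for let-7a-3 and chr22:46113686-46113768 (plus) for let-7b.
let-7a-1: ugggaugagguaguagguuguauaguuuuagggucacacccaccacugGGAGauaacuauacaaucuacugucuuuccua
let-7g: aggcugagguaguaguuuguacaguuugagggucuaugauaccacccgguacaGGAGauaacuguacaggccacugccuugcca
let-7a-3: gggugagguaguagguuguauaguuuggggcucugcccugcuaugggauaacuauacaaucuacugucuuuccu
let-7b: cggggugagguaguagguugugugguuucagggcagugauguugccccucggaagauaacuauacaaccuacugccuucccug

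The libraries were made from long RNA fragments, so mature microRNAs were not measured. Reads counted on the 12 let-7 loci numbered 15 to 41 per sample, too few to compare the groups. LIN28 acts on the hairpin RNA, so no value here measures its effect on let-7.

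LIN28B itself carries sequences matching the let-7 seed. In the 3′ untranslated region of its GENCODE transcript, 4549 bases long, 4 stretches held CTACCTC, the complement of the seed, on the transcript's strand. They are printed with 10 bases before and 5 after, the match in capitals, from the plus strand of chromosome 6 on GRCh38.
LIN28B site 1, chr6:105078817-105078838: gttgcaaagtCTACCTCatgca
LIN28B site 2, chr6:105081244-105081265: atgatagtaaCTACCTCtgagt
LIN28B site 3, chr6:105081426-105081447: cagcaaaaggCTACCTCatagt
LIN28B site 4, chr6:105082865-105082886: atggtgttgaCTACCTCttgaa

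The first and the third of these were followed by an A, which Argonaute proteins are known to favour opposite the first base of a microRNA. At least 1 match was found in 23.3% of the 1212 genes with a 3′ untranslated region within 20% of that length, and in 8.6% of all 18906 genes with one. How many of those genes hold 4 matches, as LIN28B does, was not computed. LIN28A, TARBP2, AGO1 and AGO3 had 1 match each and AGO2 had 2. Among genes with regions of similar length, the share with a match was 47.3% for AGO1, 51.1% for AGO2 and 55.8% for AGO3. It was 16.2% for LIN28A and 2.3% for TARBP2. DROSHA, DGCR8, XPO5 and DICER1 had none, and among genes with regions as long as that of DICER1, 22.3% held a match. These counts describe letters and were not tied to any change in level.

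The data were FPKM values, fragments per kilobase of exon scaled to library size, which the authors deposited as 1 table per sample. Recovered from these values, the libraries held 19058780 to 21943935 reads on genes in NC and 22273023 to 24181787 in siPrp19. PRPF19, the targeted gene, had 53.1, 53.1 and 64.9 FPKM in NC 1, 2 and 3 and 21.8, 28.5 and 33.6 FPKM in siPrp19 1, 2 and 3. All siPrp19 samples lay below all NC samples, and the siPrp19 mean was 49.0% of the NC mean. Even so, the log2 fold change of PRPF19 of −1.04 ± 0.19 (SE) had a limma adjusted p of 0.9999, and 0.19 when the fit included the replicate number. Limma voom was also run on whole reads recovered from the FPKM values, with the replicate number in the fit. It gave PRPF19 −1.04 ± 0.07 and an adjusted p of 9.87e-12. In both limma fits on FPKM values, 0 of 14462 genes tested had an adjusted p under 0.05. Failing those fits therefore does not set a gene apart. All 7 adrenergic neuroblastoma markers reported (PHOX2A, HAND2, GATA3, ISL1, TH, DBH and MYCN) had means above 1 FPKM. Their summed level was 2000 to 2120 FPKM in NC and 1880 to 2430 FPKM in siPrp19. MYCN was the largest part, at 850 to 1170 FPKM in NC and 801 to 1210 FPKM in siPrp19, so the sum hides differences among the others. PHOX2A, HAND2, ISL1, TH and DBH were lowest in replicate 3 of both groups, GATA3 in NC only, and MYCN was lowest in replicate 2. Of 8 markers of immune, epithelial, endothelial and liver cells, EPCAM alone had a mean above 1 FPKM, the sum was 1.84 to 2.16 in NC and 2.01 to 2.87 in siPrp19, and CD3E and KRT5 were listed at 0 in all samples.

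Of the LIN28 pair, LIN28B was expressed and LIN28A was not detectable at this depth. LIN28A (ENSG00000131914, chromosome 1 from 26410778 to 26429722, plus strand) had 2, 1 and 0 reads in NC 1, 2 and 3 and 1, 0 and 1 reads in siPrp19 1, 2 and 3. Every library was under 3 reads, the limit a count of 0 allows, which corresponds to 0.0302 to 0.0425 FPKM per library, and this limit covers counting error only. LIN28A was therefore left out of the test across genes and no fold change is given.

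LIN28B (ENSG00000187772, chromosome 6 from 104936616 to 105083332, plus strand) had 5.01, 7.26 and 6.15 FPKM in NC 1, 2 and 3, on 656 to 767 reads. The siPrp19 samples had 5.00, 6.83 and 5.12 FPKM. Replicate 2 was the highest and replicate 1 the lowest in both groups, and the groups overlapped, with near equal values in the first pair. The log2 fold change was −0.12 ± 0.19 (SE, n = 3 per group), with a limma adjusted p of 0.9999 and an exact two-sided permutation p of 0.60. With 3 samples against 3 such a permutation cannot give a p below 0.10. Within pairs the 95% interval of the LIN28B change, from the fit with a term for the replicate number (the replicate block), was −0.31 to 0.07. In the fit without the block, leaving out NC replicate 2 gave a LIN28B log2 fold change of 0.01. Within pairs LIN28B was lower by 0.09 in pair 2 and by 0.26 in pair 3 on the log2 scale.

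**Figure D1:**
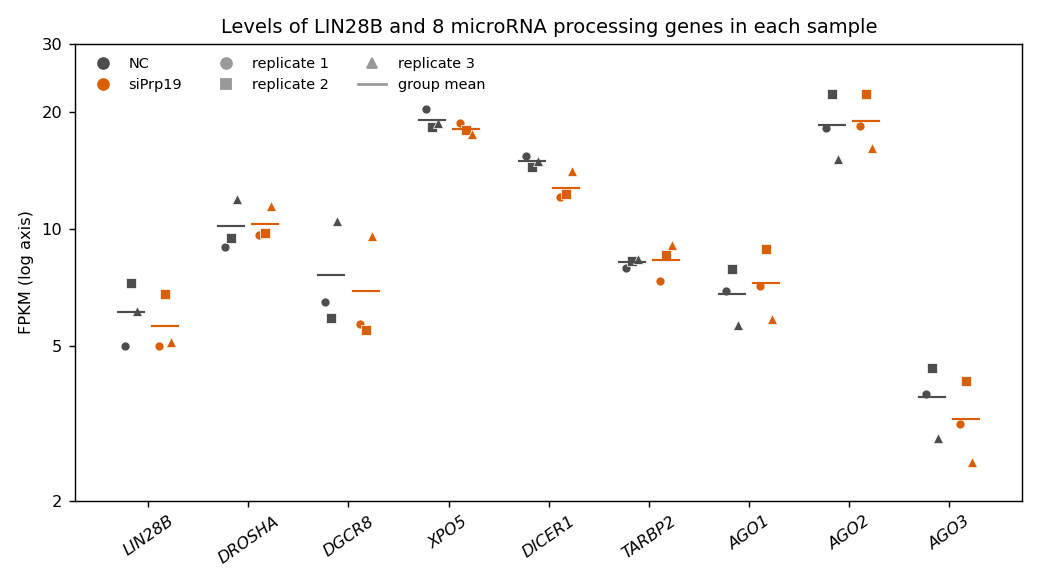
FPKM of LIN28B and 8 microRNA processing genes on a log axis in each of the 6 samples, grey for NC and orange for siPrp19, with marker shape giving the replicate number and bars the group means. DICER1 is the gene whose 3 siPrp19 points (12.1 to 14.1 FPKM) all sit below its 3 NC points (14.5 to 15.4 FPKM).

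The neuroblastoma genes tied to LIN28B in earlier work, from a list of 4, did not pass the limma test either, in which 0.0% of all genes were called. MYCN, the amplified oncogene of this line, had 959, 850 and 1170 FPKM in NC and 1210, 801 and 1100 FPKM in siPrp19. RAN, a GTPase that also powers XPO5, had 93.1, 98.8 and 109 FPKM in NC and 87.4, 95.6 and 111 FPKM in siPrp19. AURKA, a mitotic kinase that stabilises MYCN protein, lay between 18.3 and 20.1 FPKM in NC and between 16.1 and 20.4 FPKM in siPrp19. The log2 fold changes were 0.06, −0.04 and −0.05, and the groups overlapped for each of these genes. IGF2BP1, an RNA-binding protein with let-7 sites, lay at 0.0666 to 0.156 FPKM in NC and 0.0266 to 0.0792 in siPrp19 and was not tested.

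Neither Microprocessor gene passed the limma test between NC and siPrp19, in which 0.0% of all genes were called. DROSHA (ENSG00000113360, chromosome 5 from 31400497 to 31532196, minus strand), the nuclease, had 9.03, 9.49 and 12.0 FPKM in NC and 9.68, 9.80 and 11.5 FPKM in siPrp19. DGCR8 (ENSG00000128191, chromosome 22 from 20080232 to 20111877, plus strand), which binds the stem of the primary hairpin, had 6.49, 5.91 and 10.5 FPKM in NC and 5.70, 5.50 and 9.63 FPKM in siPrp19. For both genes replicate 3 was the highest sample of its group, and the groups overlapped. The log2 fold change was 0.03 ± 0.15 for DROSHA and −0.13 ± 0.30 for DGCR8, each with a limma adjusted p of 0.9999. DGCR8 was lower in each of the 3 pairs, by 0.18, 0.10 and 0.12 on the log2 scale, and with the replicate block its 95% interval was −0.28 to 0.01 and its adjusted p 0.34. Of the exon bases of DGCR8, 9.58% are shared with MIR3618, MIR1306, TRMT2A and an antisense gene, and how strand was used in counting is not stated. Leaving out NC replicate 3 gave a DGCR8 log2 fold change of 0.12, and leaving out NC replicate 1 a DROSHA value of −0.05, so without the block neither direction was stable.

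XPO5 (ENSG00000124571, chromosome 6 from 43522330 to 43576075, minus strand), the exporter of hairpins, was among the most abundant of these genes. Its levels were 20.4, 18.3 and 18.8 FPKM in NC and 18.8, 18.0 and 17.6 FPKM in siPrp19. The groups met at the upper end of siPrp19, and each siPrp19 sample was a little below the NC sample of its number. The log2 fold change of −0.08 ± 0.11 had a limma adjusted p of 0.9999, and the 95% interval within pairs was −0.20 to 0.05. An antisense overlap with POLR1C covers 4.08% of the exon bases of XPO5.

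DICER1 (ENSG00000100697, chromosome 14 from 95086228 to 95158010, minus strand), the cytoplasmic nuclease that releases the mature duplex, was the one gene here whose groups did not overlap. It had 15.4, 14.5 and 15.0 FPKM in NC 1, 2 and 3 and 12.1, 12.3 and 14.1 FPKM in siPrp19 1, 2 and 3, on 3132 to 4308 reads. The siPrp19 mean was 85.7% of the NC mean, and the gap was widest in pair 1 and narrowest in pair 3. Among all 14462 genes tested, 2.84% had every siPrp19 sample below every NC sample, against 1 of these 9. The exact two-sided permutation p of DICER1 was 0.10, the smallest that 3 against 3 can give.

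Whether DICER1 passed a test across genes depended on the fit. Without a block its log2 fold change was −0.22 ± 0.12 (SE) with a limma adjusted p of 0.9999. With the replicate block the SE was 0.07, the 95% interval −0.40 to −0.05, the unadjusted p 0.0211 and the limma adjusted p 0.248. An unadjusted p under 0.05 with a lower level was found for 8.77% of all genes in that fit, so DICER1 was 1 of 1268 such genes. On whole reads recovered from the FPKM values, limma voom with the replicate block gave a DICER1 log2 fold change of −0.23 ± 0.06 and an adjusted p of 0.0129. In that fit 4.43% of 13579 genes were called lower and 2.66% higher, and of the 9 genes tested here DICER1 was called and the other 8 were not.

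TARBP2 (ENSG00000139546, chromosome 12 from 53500921 to 53506431, plus strand), the double-stranded RNA binding partner of DICER1, had 7.96, 8.30 and 8.39 FPKM in NC and 7.38, 8.60 and 9.11 FPKM in siPrp19. The siPrp19 samples spread to both sides of the NC samples. Its log2 fold change was 0.02 ± 0.13 with a limma adjusted p of 0.9999, and it was lower in pair 1 and higher in the other pairs. The sign changed in 3 of the 6 fits that left out 1 sample. PRKRA, the related partner of DICER1, had a log2 fold change of −0.08 ± 0.12 with a limma adjusted p of 0.9999.

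**Figure D2:**
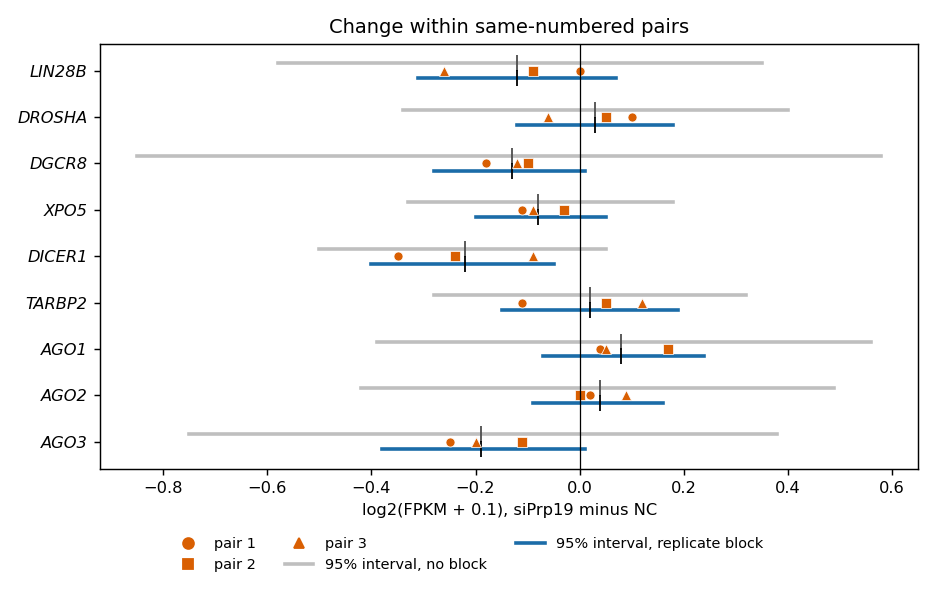
Change in log2(FPKM + 0.1), siPrp19 minus NC, of 9 genes in each same-numbered pair (orange points), with the mean change (ticks) and its 95% interval without a block (grey) and with the replicate block (blue). The blue interval of DICER1 runs from −0.40 to −0.05, and those of the other 8 genes reach 0.

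No Argonaute passed the limma test between the groups, in which 0.0% of all genes were called. AGO2 was the most abundant of them in all 6 samples. AGO2 (ENSG00000123908, chromosome 8 from 140520156 to 140635619, minus strand), the Argonaute that can cut its target, had 18.2, 22.3 and 15.2 FPKM in NC and 18.4, 22.3 and 16.2 FPKM in siPrp19. AGO1 (ENSG00000092847, chromosome 1 from 35869808 to 35930528, plus strand) had 6.95, 7.88 and 5.67 FPKM in NC and 7.13, 8.88 and 5.86 FPKM in siPrp19. AGO3 (ENSG00000126070), its neighbour on chromosome 1 from 35930718 to 36072500 on the same strand, had 3.77, 4.40 and 2.91 FPKM in NC and 3.15, 4.08 and 2.51 FPKM in siPrp19. In all 3 genes replicate 2 was the highest and replicate 3 the lowest of both groups, and the groups overlapped. The log2 fold changes were 0.04 ± 0.19 for AGO2, 0.08 ± 0.20 for AGO1 and −0.19 ± 0.24 for AGO3, each with a limma adjusted p of 0.9999. AGO1 was higher in 3 of 3 pairs and AGO3 lower in 3 of 3, and with the replicate block the adjusted p was 0.544 for AGO1 and 0.333 for AGO3. The voom fit with the replicate block gave AGO3 an adjusted p of 0.0592. Without the block, leaving out NC replicate 3 or siPrp19 replicate 2 turned the sign of AGO1 (to −0.04 and −0.07) and of AGO2 (to −0.10 and −0.09).

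Of the summed FPKM of AGO1, AGO2, AGO3 and AGO4, AGO2 made up 53.8 to 57.1% in NC and 56.0 to 57.1% in siPrp19. AGO1 made up 20.1 to 21.1% and 20.3 to 22.6%, and AGO3 10.3 to 11.4% and 8.7 to 10.4%. The sum itself was 28.2 to 39.0 FPKM in NC and 28.9 to 39.4 FPKM in siPrp19. The ratio of AGO3 to AGO1, a pair chosen after its values were seen and so given no test, was 0.542, 0.558 and 0.513 in NC and 0.442, 0.459 and 0.429 in siPrp19. Those ratios did not overlap between the groups, while the level of each gene alone did. The other ratios computed overlapped, DGCR8 to DROSHA at 0.623 to 0.871 in NC and 0.562 to 0.836 in siPrp19, and DICER1 to DROSHA at 1.248 to 1.707 and 1.226 to 1.25. How often the ratio of a gene pair separates the groups in this way was not computed.

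Across the 9 genes tested, 0 had an adjusted p under 0.05 in the limma fit without the block (0.0% of all 14462 genes) and 0 with it (0.0%), and at an unadjusted p under 0.05 the counts were 0 and 1. Over all genes 225 had an unadjusted p under 0.05 without the block. Lower levels in 3 of 3 pairs were found for 5 of the 9 (LIN28B, DGCR8, XPO5, DICER1 and AGO3), against 21.3% of all genes. LIN28B is in that count through nearly equal values in pair 1, 5.01 FPKM in NC and 5.00 FPKM in siPrp19. Higher levels in 3 of 3 pairs were found for 1 of the 9 (AGO1), against 19.2% of all genes. The median log2 fold change of the 9 was −0.08, beside −0.004 for all genes tested.

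Levels in NC can be compared between genes only per length, and the order depended on which length was used. By FPKM, which divides by all exon bases of a gene, the NC means ran from XPO5 (19.1 ± 1.09, SD, n = 3) through AGO2 (18.6 ± 3.58), DICER1 (15.0 ± 0.474), DROSHA (10.2 ± 1.61), TARBP2 (8.22 ± 0.229), DGCR8 (7.62 ± 2.48), AGO1 (6.83 ± 1.11) and LIN28B (6.14 ± 1.12) to AGO3 (3.69 ± 0.748). The ranges of neighbours overlapped between XPO5, AGO2 and DICER1, and between TARBP2, DGCR8, AGO1 and LIN28B. They did not overlap between DICER1 and DROSHA, DROSHA and TARBP2, or LIN28B and AGO3. Among the NC means of all tested genes LIN28B stood at percentile 51.9, XPO5 at 83.2 and AGO3 at 36.8.

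When the same reads were divided by the length of 1 representative transcript per gene, a choice made after seeing the data, TARBP2 came to 18.0 and XPO5 to 30.4 in the same unit. DROSHA came to 14.9, DGCR8 to 12.4, DICER1 to 17.8, AGO2 to 20.2, AGO1 to 6.92, LIN28B to 6.69 and AGO3 to 3.97. XPO5 then stood clear of AGO2, TARBP2 drew level with DICER1, and LIN28B and AGO3 kept the lowest means of the genes detected. The NC range of LIN28B (5.46 to 7.91) overlapped that of AGO1 (5.75 to 7.98), so the order of those genes is not settled.

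Levels of 6 of these genes also differed between replicate numbers. In a limma F test of the replicate number, in the fit that also held the treatment, 6 of the 9 had an adjusted p under 0.05, against 49.6% of all genes. DGCR8 differed by 0.81 on the log2 scale between its highest (3) and lowest (2) replicate number, a 1.75-fold range, with an adjusted p of 0.00339. AGO3 ranged by 0.63, AGO1 by 0.53 and AGO2 by 0.51, all from replicate 2 down to replicate 3, with adjusted p of 0.0129, 0.0112 and 0.00743. LIN28B ranged by 0.48 (adjusted p 0.0233) and DROSHA by 0.33 (adjusted p 0.0287). TARBP2, DICER1 and XPO5 did not pass, with adjusted p of 0.202, 0.412 and 0.253.

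The range between replicate numbers exceeded the size of the treatment change for 8 of the 9 genes, DICER1 being the exception, and for 91.5% of all genes. A range over 3 replicate means tends to exceed a difference of 2 group means. The median range of the 9 was 0.48, against a median treatment change of 0.08 in size. Over all genes these medians were 0.46 and 0.10. DBH, one of the adrenergic markers, moved with the replicate number too, with 3.49 and 3.94 FPKM in replicate 3 and 26.7 to 44.2 FPKM in the other samples, and its part in the variation of these genes was not tested. Fewer cells of a type and less RNA per cell cannot be told apart in such bulk samples.

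**Figure D3:**
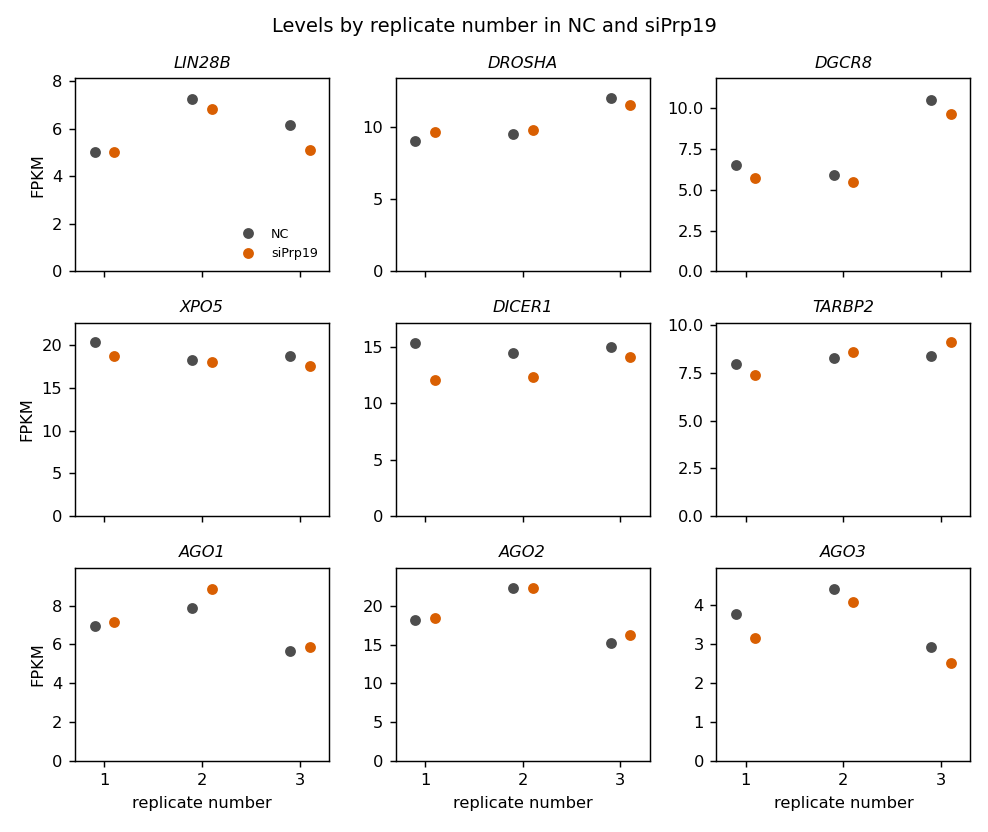
FPKM of 9 genes by replicate number, grey for NC and orange for siPrp19, each axis starting at 0. AGO1, AGO2 and AGO3 are highest in replicate 2 and lowest in replicate 3 of both groups, while DROSHA and DGCR8 are highest in replicate 3.

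The genes whose pattern over the 6 samples was most like that of LIN28B, by Pearson's r of log2(FPKM + 0.1), were CEP89 (r = 0.991), VN1R81P (0.986), OSTC (0.984), MORF4L1P1 (0.983) and RBM27 (0.982). They are the 5 highest of 14461 genes, over samples that form 3 numbered pairs, so these values are a description. CEP89 had 2.04, 2.33 and 2.24 FPKM in NC and 2.05, 2.29 and 2.05 FPKM in siPrp19, so it shared with LIN28B the high replicate 2 and the low siPrp19 replicate 3. VN1R81P and MORF4L1P1 carry the names of pseudogenes, whose counts can share reads with their parent genes.

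The wider pathway was described by 42 further genes, from primary transcript binding to hairpin decay, chosen by role. Of these, 41 passed the filter, all but TRIM71. By log2 fold change 26 were lower and 15 higher in siPrp19, with a median of −0.04 beside −0.004 for all genes tested. None passed the limma test in either fit, in which 0.0% of all genes were called. In the voom fit with the replicate block, 4 of the 35 that could be included were called lower and 0 higher. They were TENT2, TSNAX, TNRC6C and DDX6, beside 4.43% called lower and 2.66% higher over all genes.

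The 3 lowest of the 41 were TENT2, TSNAX and TNRC6C. TENT2, a nucleotidyltransferase that extends the ends of some microRNAs, had 6.79, 8.56 and 6.76 FPKM in NC and 5.31, 7.51 and 5.25 FPKM in siPrp19, a log2 fold change of −0.30 ± 0.19. TSNAX, a subunit of the nuclease that clears the passenger strand, had 6.91, 7.22 and 7.55 FPKM in NC and 5.45, 7.11 and 5.64 FPKM in siPrp19 (−0.26 ± 0.14). TNRC6C, a scaffold that links Argonaute to deadenylases, had 7.49, 8.16 and 5.62 FPKM in NC and 6.18, 6.32 and 5.41 FPKM in siPrp19 (−0.23 ± 0.17). In all 3 genes each siPrp19 sample lay below its NC partner while the groups overlapped. They were picked as the lowest, so this agreement of the pairs is a description. Of the 41, 14 were lower and 8 higher in 3 of 3 pairs, beside 21.3% and 19.2% of all genes. With the block the limma adjusted p of TENT2, TSNAX and TNRC6C were 0.207, 0.304 and 0.287.

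The 3 highest were TUT1, DIS3L2 and HNRNPA1, with log2 fold changes of 0.22 ± 0.13, 0.14 ± 0.22 and 0.13 ± 0.17. TUT1, which uridylates the U6 small nuclear RNA, had 5.90, 4.95 and 4.98 FPKM in NC and 5.94, 6.42 and 6.01 FPKM in siPrp19, so its groups did not overlap, by a small margin. TUT1 was picked as the highest, and the share of all genes separated in this direction is not given here, so this is a description. DIS3L2, the nuclease that degrades uridylated let-7 hairpins, had 2.43, 1.94 and 2.62 FPKM in NC and 2.76, 1.98 and 3.04 FPKM in siPrp19. For HNRNPA1, which binds some primary transcripts including that of let-7a, NC ran from 439 to 524 FPKM and siPrp19 from 456 to 579 FPKM.

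The uridylyltransferases TUT4 and TUT7, named here for their role in tailing hairpins and not for their change, were expressed in both groups. TUT4 had 5.98, 5.62 and 5.76 FPKM in NC and 6.44, 6.02 and 5.69 FPKM in siPrp19, and TUT7 lay between 3.64 and 4.52 FPKM in NC and between 3.71 and 4.34 FPKM in siPrp19. Their groups overlapped, with log2 fold changes of 0.06 ± 0.12 and 0.01 ± 0.14 and limma adjusted p of 0.9999.

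A list of 24 messages known as let-7 targets was read as the far end of the LIN28 path. Of these, 20 passed the filter, and HMGA2, IGF2BP1, IGF2BP2 and CCND2 did not, with NC means of 0.0106 to 0.149 FPKM. By log2 fold change 12 were lower and 8 higher, with a median of −0.01 beside −0.004 for all genes, and 0 passed the limma test with or without the block. In the voom fit with the replicate block CCND1 and IGF2BP3 were called lower and 0 were called higher, of 18 that could be included, beside 4.43% called lower and 2.66% called higher over all genes.

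CCND1, a cyclin of the G1 phase, had 170, 172 and 301 FPKM in NC and 121, 124 and 267 FPKM in siPrp19, a log2 fold change of −0.38 ± 0.38. Replicate 3 was far above the others in both groups and each siPrp19 sample lay below its NC partner. The study reports a fall of CCND1 after Prp19 knockdown too, and places the gene downstream of YAP. A link of the CCND1 change to let-7 or LIN28B was not tested. IGF2BP3, an RNA-binding protein of fetal tissue and tumours, had 8.45, 7.72 and 10.2 FPKM in NC and 7.04, 6.62 and 7.91 FPKM in siPrp19 (−0.28 ± 0.15). MYC, at 0.792 to 3.73 FPKM in NC and 0.833 to 2.79 in siPrp19, was the other of the 3 lowest (−0.37 ± 0.65). The 3 highest were HIC2 (0.16 ± 0.24), RRM2 (0.15 ± 0.41) and HRAS (0.10 ± 0.11), and the groups of all 6 genes overlapped. With the replicate block the limma adjusted p was 0.202 for CCND1 and 0.204 for IGF2BP3.

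**Figure D4:**
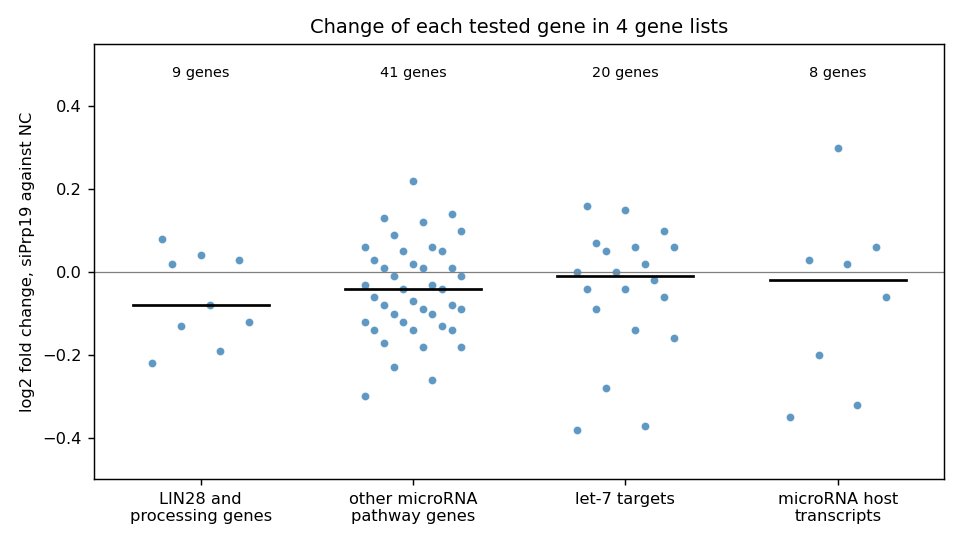
Log2 fold change of siPrp19 against NC for each tested gene in 4 lists, with the list median as a bar. The medians are −0.08 for the 9 LIN28 and processing genes, −0.04 for 41 other pathway genes, −0.01 for 20 let-7 targets and −0.02 for 8 host transcripts, and no point lies beyond −0.38 or 0.30.

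Primary transcripts were not measured directly, and the levels below are those of the exons of their host genes. Exon levels do not measure the RNA that still holds a hairpin, least of all where the hairpin lies in an intron. Of 13 host genes, 8 averaged 1 FPKM or more. MIRLET7BHG, the host of the let-7a-3 and let-7b hairpins printed above without GGAG, had 4.86, 5.12 and 4.82 FPKM in NC and 4.57, 4.84 and 4.78 FPKM in siPrp19. The siPrp19 samples were each slightly below their NC partners, with overlapping groups and a log2 fold change of −0.06 ± 0.11. MIR100HG, the host of let-7a-2, had 7.11, 9.75 and 5.62 FPKM in NC and 7.89, 9.52 and 5.94 FPKM in siPrp19 (0.06 ± 0.25). HUWE1, whose introns hold miR-98 and let-7f-2, had 26.6, 27.4 and 26.7 FPKM in NC and 25.8, 27.6 and 28.6 FPKM in siPrp19 (0.02 ± 0.11). The exon levels of these 3 let-7 hosts differed little between the groups on the log2 scale. Of the 8 hosts tested, 0 passed the limma test with or without the block, in which 0.0% of all genes were called. MIR99AHG, MIR34AHG, MIR155HG, MIR181A1HG and DLEU2 were under the filter and not tested. MIR99AHG was just under it, with 1.05, 0.736 and 1.02 FPKM in NC and 1.46, 0.85 and 0.823 FPKM in siPrp19.

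The other 5 hosts were MIR22HG (log2 fold change −0.35 ± 0.62), MIR17HG (−0.32 ± 0.42), MIR503HG (−0.20 ± 0.43), MCM7 (0.03 ± 0.16) and MIR210HG (0.30 ± 1.07). MIR210HG, the host of a hypoxia-induced microRNA, varied most with the replicate number, at 10.8, 10.9 and 1.29 FPKM in NC and 14.4, 11.5 and 1.75 FPKM in siPrp19. MIR17HG, the host of the miR-17 cluster, had 2.31, 2.55 and 5.68 FPKM in NC and 1.84, 2.27 and 4.04 FPKM in siPrp19. In both of these hosts replicate 3 stood apart from the other numbers in both groups, downward for MIR210HG and upward for MIR17HG. The SE above include these differences. With the replicate block the SE was 0.09 for MIR210HG, higher in 3 of 3 pairs, and 0.10 for MIR17HG, lower in 3 of 3. Their limma adjusted p in that fit were 0.242 and 0.253. Of the 8 hosts, 3 were lower and 1 higher in 3 of 3 pairs, beside 21.3% and 19.2% of all genes.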

How the data were processed

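The 6 samples were 3 NC and 3 siPrp19 cultures. The submitters' processing notes name HISAT2 2.0.5, featureCounts 1.5.0-p3 and hg38. The annotation release is not given in the sources used here. The authors deposited FPKM values per Ensembl gene. Of 58302 identifiers, 58039 were found in GENCODE 29, which gave symbols, coordinates and exon lengths. Multiplied by exon length and divided by the worth of 1 read, the values were whole (tolerance 0.05 reads) in every sample for 95.8% of the 37521 matched genes above 0, and those reads were used in limma voom.

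The 14462 genes averaging 1 FPKM or more were tested with limma 3.58.1 (R 4.3.3, lmFit, eBayes with trend) on log2(FPKM + 0.1), with Benjamini-Hochberg adjustment and no block. A fold change on this scale understates the change of low genes. Same-numbered samples, numbered so in the labels, deviated together (correlation of their deviations from the group means 0.38, 0.57 and 0.64), so the replicate block is given where it matters. Single genes were tested by exact two-sided permutation (scipy 1.17.1, Python 3.11.15). The fits were tested on simulated data. All 10 genes are given, other lists by their 3 lowest and 3 highest log2 fold changes, or whole where short, and the 5 genes most like LIN28B. One let-7 target and one marker first listed are not reported here, and the counts leave them out. The genes and lists were chosen with earlier results of these data known. Alternatives were a pseudocount of 1, no filter, a filter at 5 FPKM, TPM, quantile normalization, eBayes without trend and robust, the replicate block, voom, and each sample left out. Sequences are from RefSeq (GRCh38.p14) and the GENCODE transcripts. Depth limits LIN28A only, since the others rest on at least 598 reads per sample.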

Additional observations from a re-analysis of the deposited data

How the results depend on the processing

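Genes with an adjusted p under 0.05 numbered 0 in the fit reported and in most alternatives, 1 by eBayes without trend and robust, 124 with the replicate block and a filter at 5 FPKM, and 963 by voom with the replicate block. In that last fit 1 of the 9 LIN28 and processing genes was called, DICER1. The replicate block alone called 0 and changed no other call of these genes. Of the 142 single-gene results under 16 alternatives, 128 kept direction and call and 13 changed sign, all when 1 sample was left out. The fits that left out 1 sample had no block, so the replicate numbers were then unequal between the groups. Leaving out 1 sample gave log2 fold changes of −0.07 to 0.23 for AGO1, −0.10 to 0.18 for AGO2, −0.36 to −0.02 for AGO3, −0.39 to 0.12 for DGCR8, −0.30 to −0.18 for DICER1, −0.05 to 0.15 for DROSHA, −0.26 to 0.01 for LIN28B, −0.04 to 0.11 for TARBP2 and −0.11 to −0.03 for XPO5. The let-7 target median (−0.012) was −0.044 with no filter, 0.0 with quantile normalization, and −0.036 and −0.048 by voom without and with the replicate block. With 1 sample left out it was −0.07 to 0.013, and the pathway median (−0.042) was −0.073 to −0.01. The cause of these shifts was not tested.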
